A study of Homo sapiens with 8 samples.

Results

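The translesion and alternative DNA polymerases measured here are 10 genes of the DNA damage tolerance machinery, chosen by symbol from the 21059 genes of an RNA sequencing table: the Y-family polymerases POLH, POLI, POLK and REV1, the polymerase zeta subunits REV3L and MAD2L2, the end joining polymerase POLQ, the primase-polymerase PRIMPOL, and the PCNA ubiquitin ligases RAD18 and HLTF. All 10 were found in the table, and the rule that picks them uses symbols only. The libraries came from MDA-MB-157, an established human breast cancer cell line classed by the study as negative for the estrogen receptor. Low glucose cells were kept at 5 mM glucose for 48 hours (4 libraries), and high glucose cells were switched to 25 mM glucose for the same 48 hours (4 libraries). Per the study's methods, both groups had first been conditioned in low-glucose medium, and the media held no serum. The comparison asks which transcripts differ when cells of this line are given glucose at a level used to model diabetes. A single cell line was used, its high glucose medium also has the higher osmolarity unless this is balanced, the labels name no mannitol control for these libraries, and glucose and osmolarity cannot be told apart here.

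Translesion synthesis lets a replication fork pass a damaged base that stops the replicative polymerases. RAD18, with its partner enzyme RAD6, attaches a single ubiquitin to the sliding clamp PCNA, and the Y-family polymerases bind the modified clamp, insert a base opposite the lesion and hand over to polymerase zeta, which extends the new end. HLTF can lengthen the ubiquitin on PCNA into a chain, which turns the fork to an error-free bypass that copies the sister strand. PRIMPOL instead restarts synthesis downstream of the block, and POLQ joins broken ends through short stretches of matching sequence. Most of these polymerases copy DNA with lower fidelity than the replicative enzymes, and their synthesis is a known source of mutations.

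At high glucose the transcripts of the 2 PCNA ligases changed in opposite directions, and 2 of the Y-family polymerases were lower. RAD18 rose 1.49-fold at high glucose, while HLTF fell to 0.861 of its low glucose mean, POLI to 0.522 and POLK to 0.771. The other 6 genes did not pass the threshold with all 8 libraries. The 4 genes that passed an adjusted p of 0.05 in limma compare with 46.8% of all genes tested, and with 66.9% of the genes with a mean of at least 5 CPM, which all 10 genes reach, so the 10 genes were not called more often than the background. By direction, 1 of the 10 was higher, against 22.0% of all genes and 33.6% of those of at least 5 CPM, and 3 were lower, against 24.8% and 33.3%. The median log2 change of the 10 genes was -0.04, beside -0.01 over all genes. The low and high glucose ranges did not overlap for the same 4 genes, and the ranges did not overlap for 65.0% of the genes of at least 5 CPM.

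The promoters of RAD18, HLTF and POLI are shown because these are the ligase that rose, the ligase that fell and the polymerase with the largest fall among the 10 genes. All 10 genes had a promoter in the RefSeq table used. The sequences are from RefSeq on GRCh38.p14, the same human build as the hg38 named in the submitters' processing notes, and each is given 5′ to 3′ on the strand of its gene, up to the last base before the annotated gene. They lie at chr3:8963473-8963722 on the minus strand (RAD18, 250 bases), chr3:149086534-149086783 on the minus strand (HLTF, 250 bases) and chr18:54269324-54269478 on the plus strand (POLI, 155 bases). Capitals mark matches, on either strand, to 5 motifs: an E2F motif (TTTCCCGC, TTTCGCGC, TTTGCCGC or TTTGGCGC), the CHR motif TTTGAA, the CCAAT box, the E-box CACGTG and the GC box GGGCGG.
RAD18: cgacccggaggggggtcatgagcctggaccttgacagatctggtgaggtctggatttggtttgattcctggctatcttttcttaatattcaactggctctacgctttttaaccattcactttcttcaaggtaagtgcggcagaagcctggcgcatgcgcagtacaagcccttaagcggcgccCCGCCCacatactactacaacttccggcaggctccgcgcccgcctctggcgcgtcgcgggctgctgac
HLTF: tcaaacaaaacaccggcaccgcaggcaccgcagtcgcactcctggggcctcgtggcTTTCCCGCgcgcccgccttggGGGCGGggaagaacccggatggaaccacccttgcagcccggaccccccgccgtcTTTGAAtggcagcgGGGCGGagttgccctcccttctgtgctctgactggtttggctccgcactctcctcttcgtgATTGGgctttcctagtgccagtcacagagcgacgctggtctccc
POLI: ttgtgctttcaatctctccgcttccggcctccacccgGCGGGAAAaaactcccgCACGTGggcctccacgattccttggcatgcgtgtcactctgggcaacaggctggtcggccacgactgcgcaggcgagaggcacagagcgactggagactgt
The RAD18 sequence held 1 GC box, which 42.6% of 35093 promoter windows of 250 bases hold, and none of the other motifs. The HLTF sequence held 1 E2F motif (2.79% of windows), 1 CHR motif (13.3%), 1 CCAAT box (32.0%) and 2 GC boxes. POLI held 1 E2F motif and 1 E-box (6.34% of windows) within its shorter stretch of 155 bases, written above as GCGGGAAA and CACGTG. A match describes the letters only, and no binding was measured in these cells.

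Values are CPM, the reads of a gene scaled to libraries of a common size, after the authors' TMM scaling between libraries, and each library held an estimated 9721650 to 12482500 reads in the table, so that 3 reads were worth 0.212 to 0.267 CPM. The lowest of the 10 genes, POLI at high glucose, rested on 58 to 85 reads a library, and MAD2L2, the highest, on 574 to 1051. The SD between high glucose libraries was 5.40 times that of counting reads for REV3L, 4.54 times for MAD2L2 and 3.18 times for POLQ, and at most 2.08 times for the other 7 genes, so that spread between libraries and not depth sets the error of those 3 genes. High glucose replicate 1 stood apart from the other libraries of its group. Over 11223 genes, its difference from the other 3 high glucose libraries fell with transcript length (Spearman rho = -0.65 across genes), against 0.25 to 0.47 for each of those and -0.13 to 0.06 for the low glucose libraries. With GC content, rho ran from -0.49 for high glucose replicate 4 to 0.34 for high glucose replicate 1. Results that rest on this library are therefore given with and without it. Of the breast cancer markers, VIM stood at 2856 to 4116 CPM, KRT18 at 156 to 238, KRT8 at 76.4 to 138, ERBB2 at 35.7 to 65.0, EPCAM at 3.93 to 7.62, PGR at 4.33 to 5.95 and GATA3 at 0 to 1.33 CPM, and ESR1, which encodes the estrogen receptor, stayed under the value of 3 reads in every library. Of 5 genes of other cell types, PTPRC did not exceed 0.178 CPM and CDH5 and ALB 0.364 CPM, while PECAM1 reached 0.911 to 2.84 and CD68 9.38 to 14.3 CPM.

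RAD18 is the ubiquitin ligase that starts translesion synthesis, and its gene lies on chromosome 3 (ENSG00000070950.10, chr3:8877075-8963472, GRCh38.p14). Values are given in the order of the replicate numbers throughout. Its level was 31.4, 33.5, 30.6 and 32.3 CPM in low glucose replicates 1 to 4 and 44.4, 44.1, 51.9 and 50.7 CPM in high glucose replicates 1 to 4. Every high glucose library lay above every low glucose library. The mean rose from 31.97 ± 1.27 to 47.8 ± 4.09 CPM (SD, n = 4 each), a log2 change of 0.56 (SE 0.0629, limma adjusted p = 0.000314). In bulk RNA, more transcript in each cell and more cells with the transcript cannot be told apart. Among genes with a mean of at least 5 CPM, 28.7% had a larger absolute log2 change than RAD18.

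HLTF, a helicase-like ligase of the SWI/SNF family, lies on the same chromosome (ENSG00000071794.16, chr3:149030063-149086533). Low glucose replicates 1 to 4 gave 60.5, 61.9, 56.1 and 62.4 CPM, and high glucose replicates 1 to 4 gave 47.3, 53.6, 52.2 and 54.2 CPM. The groups did not overlap, and the libraries nearest to each other were at 56.1 CPM (low glucose) and 54.2 CPM (high glucose). The mean fell from 60.2 ± 2.87 to 51.8 ± 3.13 CPM (SD, n = 4 each), a log2 change of -0.21 (SE 0.0528, limma adjusted p = 0.0135). The change was small beside most genes, since 68.2% of genes of at least 5 CPM changed more. Of the HLTF canonical transcript, 31% also lies within exons of GYG1, a glycogenin gene on the opposite strand, whose mean was 36.6 CPM (low) and 31.2 CPM (high glucose). Whether the reads were counted by strand is not stated, so reads from the shared stretch could belong to either gene.

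Because both ligases act on PCNA, their ratio within each library was also taken, as a description chosen after the values were seen. RAD18 stood at 0.519, 0.542, 0.545 and 0.519 of HLTF in low glucose replicates 1 to 4 and at 0.939, 0.823, 0.994 and 0.934 of HLTF in the high glucose replicates. The mean ratio was 0.531 ± 0.0144 at low and 0.922 ± 0.0716 at high glucose (SD, n = 4 each). HLTF was the more abundant transcript by CPM in all 8 libraries, and the 2 transcripts came close to equal CPM only at high glucose.

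**Figure D1:**
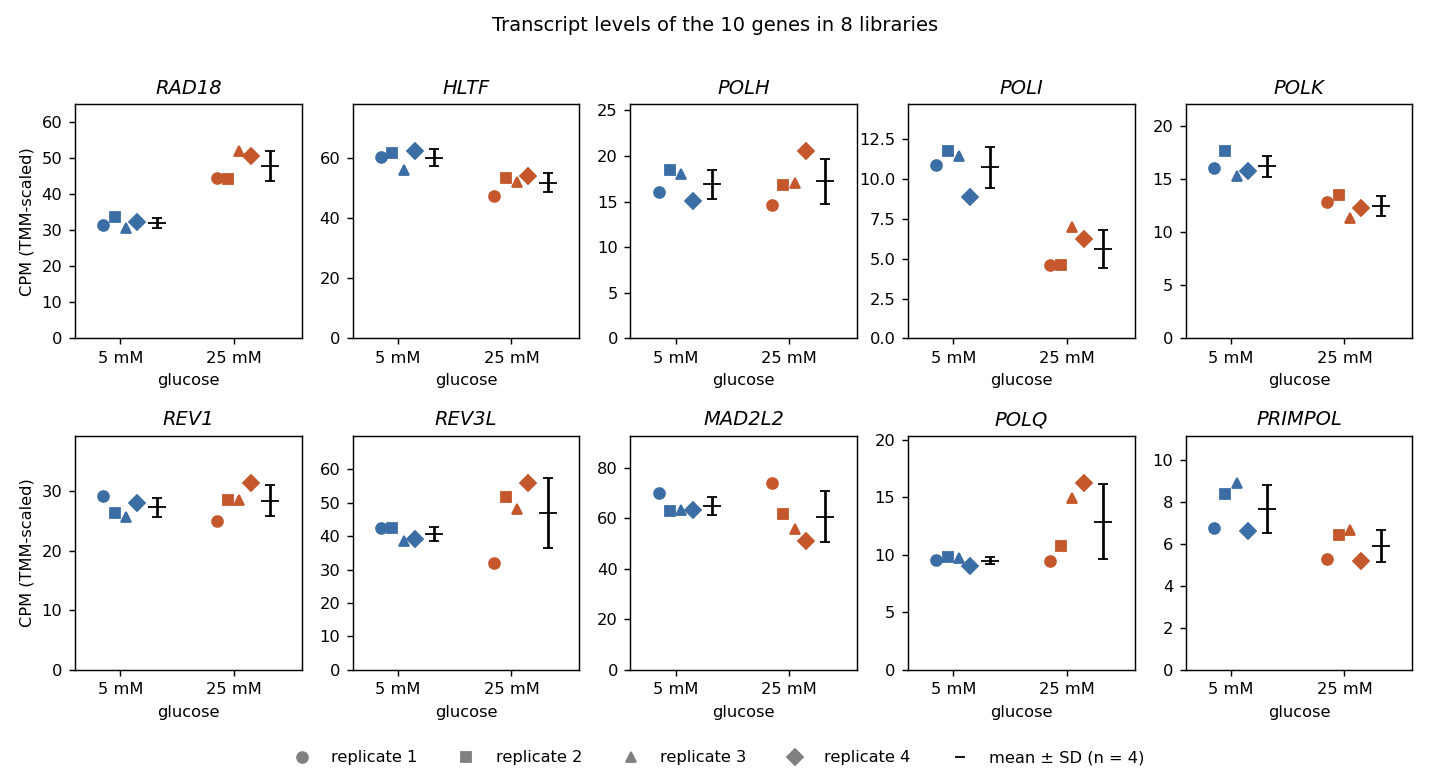
TMM-scaled CPM (vertical axes, linear, starting at 0) of the 10 genes in the 4 libraries at 5 mM and the 4 at 25 mM glucose, 1 point per library with its replicate marked by shape, beside the mean and SD. The groups do not overlap for RAD18, HLTF, POLI and POLK, and high glucose replicate 1 lies apart from the other high glucose libraries for REV3L (31.8 CPM) and MAD2L2 (74.2 CPM).

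The Y-family polymerases divided into 2 that fell and 2 that did not pass the test. POLI, polymerase iota, which inserts bases opposite lesions with very low fidelity, lies on chromosome 18 (ENSG00000101751.10, chr18:54269479-54321266). It measured 10.9, 11.8, 11.5 and 8.89 CPM in low glucose replicates 1 to 4 and 4.59, 4.62, 7.01 and 6.22 CPM in high glucose replicates 1 to 4. All high glucose libraries lay under the lowest low glucose library. The mean fell from 10.8 ± 1.30 to 5.61 ± 1.20 CPM (SD, n = 4 each), with a log2 change of -0.84 (SE 0.148, 95% CI -1.19 to -0.49, limma adjusted p = 0.00285). This was the largest absolute change of the 10 genes, and only 11.6% of genes of at least 5 CPM changed more.

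POLK, polymerase kappa, which bypasses bulky adducts and also extends mismatched ends, lies on chromosome 5 (ENSG00000122008.15, chr5:75510774-75609991). Its CPM values were 16.1, 17.6, 15.3 and 15.8 at low glucose and 12.8, 13.6, 11.3 and 12.3 at high glucose. The groups did not overlap, and the spread within each was about that of counting reads, at 0.883 and 0.951 times the SD that counting alone gives. The log2 change was -0.35 (SE 0.0662, limma adjusted p = 0.00389), from a mean of 16.2 ± 1.01 to 12.5 ± 0.952 CPM (SD, n = 4 each). About as many genes changed more as changed less, with 49.8% of genes of at least 5 CPM ahead of POLK.

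POLH, polymerase eta, copies past ultraviolet-induced thymine dimers, and its loss causes the variant form of xeroderma pigmentosum (ENSG00000170734.11, chr6:43576185-43620523). Its CPM values were 16.0, 18.5, 18.0 and 15.1 at low glucose and 14.6, 16.8, 17.0 and 20.5 at high glucose. The groups overlapped across most of their range, and high glucose replicates 1 and 4 were the lowest and highest of all 8 libraries. A log2 change of 0.02 (95% CI -0.23 to 0.28, limma adjusted p = 0.921) leaves room for a change of either sign. The POLH transcript shares 13.6% of its 31-base words with other genes, the most of the 10, so its level is less certain than those of genes with none.

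REV1, a deoxycytidyl transferase that acts mainly as the scaffold on which the other translesion polymerases assemble, lies on chromosome 2 (ENSG00000135945.10, chr2:99400477-99490202). The level was 29.2, 26.3, 25.6 and 28.0 CPM at low glucose and 25.1, 28.5, 28.6 and 31.4 CPM at high glucose. High glucose replicate 1 was the lowest of all libraries and high glucose replicate 4 the highest. The groups overlapped, with a log2 change of 0.05 (95% CI -0.12 to 0.22, limma adjusted p = 0.606). Of the REV1 canonical transcript, 17.97% lies within exons of EIF5B, a translation initiation factor gene on the opposite strand, whose mean was 85.6 CPM in the low and 127 CPM in the high glucose group, and the part of such reads in the REV1 values was not tested.

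Set against POLH in the same library, POLI stood at 0.682, 0.637, 0.637 and 0.589 in the low glucose libraries and at 0.314, 0.275, 0.413 and 0.303 in the high glucose libraries. The 2 groups of ratios did not overlap, and the mean ratio of 0.636 ± 0.0379 became 0.326 ± 0.0600 (SD, n = 4 each). The ratio of POLK to POLH went from 0.964 ± 0.0858 to 0.737 ± 0.129, with overlap between the groups. These ratios were chosen after the values were seen and were not tested.

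**Figure D2:**
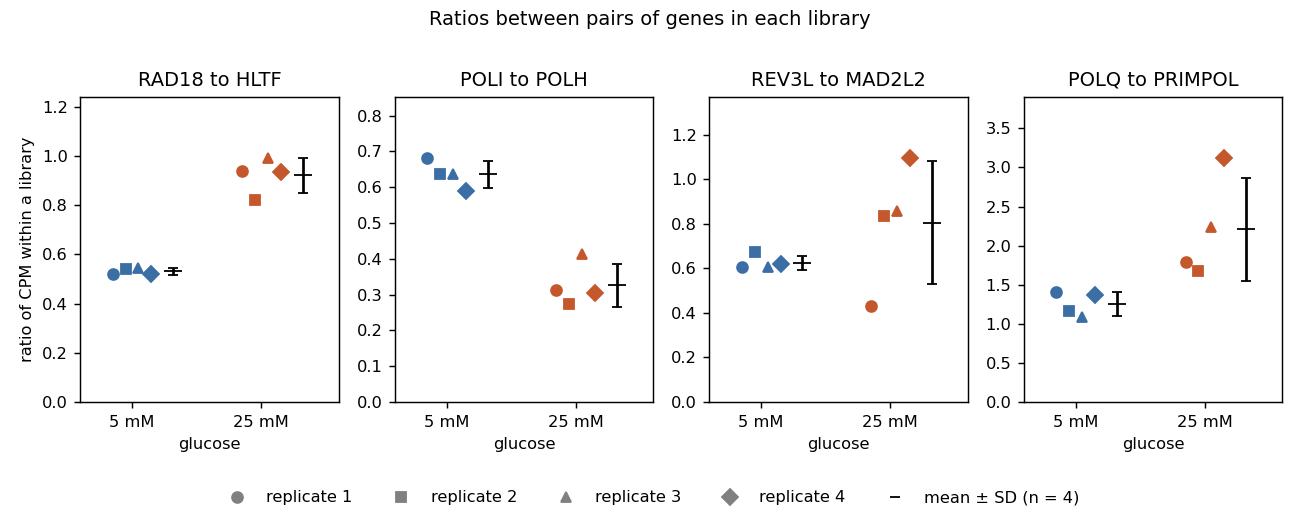
Ratio of the CPM of 2 genes within the same library (vertical axes, starting at 0) at 5 mM and 25 mM glucose, with 1 point per library and the mean and SD beside them. The ratios of RAD18 to HLTF, POLI to POLH and POLQ to PRIMPOL separate the groups, while REV3L to MAD2L2 overlaps because high glucose replicate 1 is at 0.429.

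Among the 10 genes, the high glucose libraries differed most from each other, relative to counting error, in the subunits of polymerase zeta. REV3L, its catalytic subunit, lies on chromosome 6 (ENSG00000009413.15, chr6:111299033-111483711). Low glucose replicates gave 42.4, 42.5, 38.5 and 39.2 CPM and high glucose replicates 31.8, 51.7, 48.0 and 56.0 CPM. High glucose replicate 1 was the lowest of all 8 libraries, and the other 3 high glucose libraries were above all 4 low glucose libraries. The SD between low glucose libraries was 1.15 times that of counting reads, well under the value at high glucose. With 8 libraries the log2 change of REV3L was 0.17 (95% CI -0.22 to 0.57, limma adjusted p = 0.447), and without high glucose replicate 1 it was 0.34 (limma adjusted p = 0.0050). Without high glucose replicate 4, the library with the highest value, the log2 change was 0.078 (limma adjusted p = 0.766). With the trend with transcript length removed from each of the 8 libraries, it was 0.19 (limma adjusted p = 0.0668), in a fit of the 14227 genes with a mean of at least 1 CPM and a known length.

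MAD2L2, also called REV7, is the adaptor that joins REV3L to REV1 and is also a subunit of shieldin, which protects broken ends (ENSG00000116670.15, chr1:11674480-11691830). It measured 70.2, 63.1, 63.4 and 63.4 CPM at low glucose and 74.2, 61.8, 56.0 and 51.0 CPM at high glucose. Here high glucose replicate 1 was the highest of all 8 libraries, and the other 3 high glucose libraries were below all 4 low glucose libraries. The log2 change was -0.11 (95% CI -0.37 to 0.15, limma adjusted p = 0.470) with 8 libraries and -0.21 (limma adjusted p = 0.0574) without high glucose replicate 1. Without high glucose replicate 4, the library with the lowest value, the log2 change was -0.031 (limma adjusted p = 0.862). It was 0.0090 when the trend with transcript length was removed from each library, and 0.06 when the trend with GC content was removed, so that its sign was not settled.

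The polymerase zeta transcripts differ widely in length, with canonical transcripts of 10706 bases for REV3L, the longest of the 10 genes after POLK, and 1053 bases for MAD2L2, the shortest. High glucose replicate 1 differed from the mean of the other 3 high glucose libraries by -0.69 on the log2 scale for REV3L and by 0.40 for MAD2L2. POLQ, with a transcript of 8757 bases, deviated by -0.50, and the remaining 7 genes by -0.30 to 0.05. The order of the deviations was not that of the lengths throughout, since POLK, with the longest canonical transcript (14623 bases), deviated by 0.05 and RAD18 (5857 bases) by less than the shorter PRIMPOL, REV1 and HLTF. The ratio of REV3L to MAD2L2 was 0.604, 0.673, 0.608 and 0.618 in the low glucose libraries and 0.429, 0.837, 0.857 and 1.10 in the high glucose libraries. Without high glucose replicate 1, the ratios at high glucose were all above those at low glucose. The ratio of REV3L to REV1 overlapped between the groups, with means of 1.49 at low and 1.64 at high glucose. Both ratios were also chosen with the values known and were not tested.

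**Figure D3:**
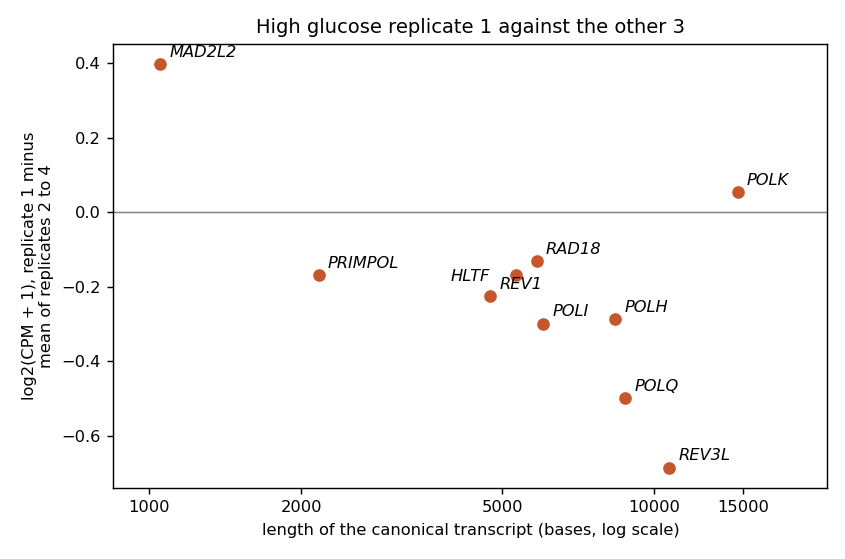
Difference of high glucose replicate 1 from the mean of the other 3 high glucose libraries on the log2(CPM + 1) scale (vertical axis), against the length of the canonical transcript in bases (horizontal axis, log scale), 1 point per gene. MAD2L2 (0.40) and REV3L (-0.69) are at the ends of the vertical range, and POLK (0.05) and RAD18 (-0.13) are among the genes that depart from the order by length.

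POLQ, polymerase theta, carries out end joining at short homologies and is the polymerase on which cells without homologous recombination are known to depend (ENSG00000051341.14, chr3:121431431-121545988). Low glucose replicates gave 9.50, 9.77, 9.68 and 9.03 CPM, and high glucose replicates gave 9.46, 10.8, 14.9 and 16.3 CPM. High glucose replicate 1 lay within the low glucose range, and the other 3 were above it. The low glucose mean was 9.50 ± 0.330 CPM and the high glucose mean 12.9 ± 3.26 CPM (SD, n = 4 each), a log2 difference of 0.37 (95% CI -0.02 to 0.76) with a limma adjusted p of 0.108. Without high glucose replicate 1 the difference was 0.49 and the limma adjusted p 0.0244. It was 0.29 without high glucose replicate 3 and 0.25 without high glucose replicate 4, with limma adjusted p of 0.231 and 0.214. Among genes of at least 1 CPM, the limma adjusted p with all 8 libraries was 0.0328, and with the length trend also removed from these genes it was 0.00855, at a log2 difference of 0.37 in both.

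PRIMPOL restarts synthesis beyond a lesion by laying down a new primer (ENSG00000164306.11, chr4:184649738-184694952). Its CPM values were 6.76, 8.40, 8.93 and 6.62 at low glucose and 5.29, 6.44, 6.66 and 5.20 at high glucose. The groups overlapped by a narrow margin, with low glucose replicate 4 (6.62 CPM) under high glucose replicate 3 (6.66 CPM). The PRIMPOL mean was 7.68 ± 1.16 CPM in the low and 5.90 ± 0.756 CPM in the high glucose group (SD, n = 4 each), and the log2 difference of -0.33 (95% CI -0.62 to -0.04) had a limma adjusted p of 0.0645. PRIMPOL shares 19.9% of its canonical transcript with exons of CENPU, a centromere gene on the opposite strand, whose mean was 12.5 CPM in the low and 21.4 CPM in the high glucose libraries and so differed in the other direction. POLQ stood at 1.41, 1.16, 1.08 and 1.36 of PRIMPOL in the low glucose libraries and at 1.79, 1.67, 2.24 and 3.13 of it in the high glucose libraries, without overlap. This ratio, of genes that did not pass with all 8 libraries, was also chosen with the values known and was not tested.

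Which of these genes pass depends on the genes tested beside them and on 1 library. Testing genes of at least 5 CPM, of which 71.9% were called, added POLQ (limma adjusted p = 0.0320) and PRIMPOL (limma adjusted p = 0.0278), for 6 of the 10 genes. Leaving out high glucose replicate 1 added REV3L and POLQ, also for 6 of the 10. In that fit 48.2% of all genes were called, and the share among genes of at least 5 CPM, which all 10 genes reach, was not taken. With both choices together, an alternative added after seeing the data, 8 of the 10 passed, against 76.5% of the genes tested. RAD18, HLTF, POLI and POLK passed in all 18 alternatives, and POLH and REV1 in none.

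**Figure D4:**
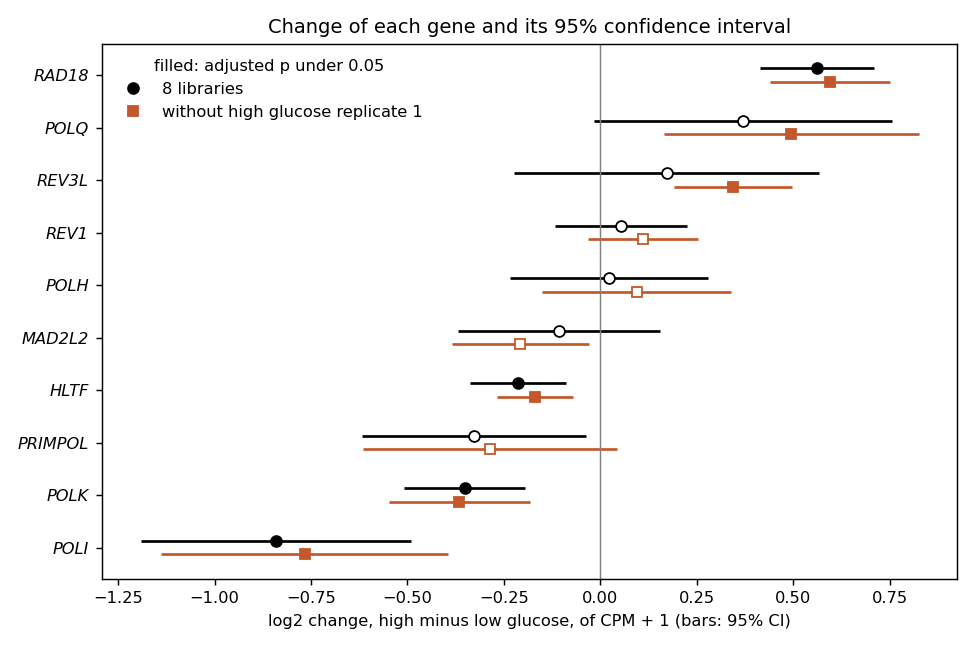
Log2 change of CPM + 1, high minus low glucose (horizontal axis), of each gene with its 95% confidence interval, from all 8 libraries (circles) and without high glucose replicate 1 (squares), filled where the adjusted p is under 0.05. RAD18, HLTF, POLK and POLI are filled in both, and REV3L and POLQ only without that library.

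Per length of the canonical transcript, MAD2L2 had by far the most transcript. Its mean at low glucose was 61.7 CPM per kilobase of canonical transcript, and HLTF followed at 11.3. REV1 (5.77) and RAD18 (5.46) came next with overlapping ranges, and so did REV3L (3.80) and PRIMPOL (3.55), POLH (2.02) and POLI (1.79), and POLK (1.11) and POLQ (1.08), each in CPM per kilobase. At high glucose RAD18 (8.15) stood above REV1 (6.0), and POLQ (1.47) above POLI (0.932) and POLK (0.854). The order rests on the choice of transcript. With the median length of the coding transcripts, MAD2L2 would be at 69.4, RAD18 at 55.9 and POLK at 10.6 CPM per kilobase at low glucose. MAD2L2 would then no longer stand far above RAD18.

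The transcripts of the PCNA cycle around these polymerases were mostly higher at high glucose. The list of 16 genes holds PCNA itself, RFWD3, and genes of ubiquitin and SUMO addition or removal and of clamp unloading. Of the 16, 12 rose, against 22.0% of all genes and 33.6% of those of at least 5 CPM, as all 16 are. None fell, and the median log2 change was 0.33 beside -0.01 over all genes. PCNA itself went from 86.4 to 89.6 CPM across the low glucose libraries to 142 to 179 CPM across the high glucose libraries (log2 change 0.78, limma adjusted p = 0.000149). The RAD6 enzymes that work with RAD18 also rose, UBE2A from a mean of 125 to 159 CPM and UBE2B from 46.5 to 69.3 CPM. USP1, which strips ubiquitin from PCNA, rose from 46.6 to 76.2 CPM. RFWD3, a ubiquitin ligase for RPA, rose from 38.3 to 68.5 CPM, ATAD5, which unloads PCNA, from 8.01 to 15.9 CPM, and DTL, a substrate receptor of the CRL4 ligase, from 34.3 to 57.4 CPM. RAD18 thus moved in the direction of these genes, and HLTF against it. SHPRH, named after its values were seen, had the lowest log2 change of the list and did not pass. Its mean went from 23.2 to 18.5 CPM (log2 change -0.33, limma adjusted p = 0.0991), with overlap between the groups.

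Of the accessory subunits that polymerase zeta shares with polymerase delta, POLD2 fell and POLD3 did not pass. POLD2 fell from 150 to 130 CPM (log2 change -0.21, limma adjusted p = 0.0198), and POLD3 had means of 16.6 and 16.3 CPM, with a log2 difference of -0.02 (95% CI -0.23 to 0.18). Of the 12 replicative polymerase and primase genes, 2 rose and 4 fell, with a median log2 change of -0.10. Of all genes 46.8% were called, and of those of at least 5 CPM, which 11 of the 12 reach, 66.9%. POLE3, a histone-fold subunit of polymerase epsilon, rose from 58.7 to 92.3 CPM, POLD4, the smallest subunit of polymerase delta, fell from 20.4 to 10.4 CPM, and the primase subunit PRIM2 fell from 32.4 to 27.8 CPM. The falls of POLD2 and PRIM2 were each lost in 4 of 18 alternatives. The count was 3 of 12 in place of 6 without low glucose replicate 1 and again without low glucose replicate 2. In these fits 8899 and 8923 of the 21059 genes were called.

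Other specialized polymerases fell or did not pass. POLL, a gap-filling polymerase of end joining, fell from 14.4 to 6.26 CPM (log2 change -1.08, limma adjusted p = 1.45e-05), and its relative POLM fell from 13.6 to 8.12 CPM. POLB, the base excision repair polymerase, did not pass, with means of 22.5 and 23.2 CPM, and POLN was near 1 CPM in both groups (1.06 and 1.0). In all, 2 of 5 genes fell and none rose, with a median log2 change of -0.08. The shares called were 46.8% of all genes and 66.9% of those of at least 5 CPM, which 4 of the 5 reach.

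Of the 11 genes that work with POLQ in end joining or on the ends it uses, 4 rose and 6 fell, against 33.6% and 33.3% of genes of at least 5 CPM, with a median log2 change of -0.13. RBBP8, which starts end resection, rose from 31.6 to 55.4 CPM and the flap nuclease FEN1 from 52.9 to 81.5 CPM. NBN, a subunit of the MRN complex, fell from 91.9 to 76.7 CPM, and the nuclease APEX2 from 18.8 to 13 CPM. The list therefore did not move in a single direction beside POLQ.

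Among the 5 shieldin and 53BP1 genes around MAD2L2, 1 rose and 2 fell, with a median log2 change of 0.11. This compares with 46.8% of all genes called and 66.9% of those of at least 5 CPM, which 4 of the 5 reach. SHLD3, the subunit that binds MAD2L2, rose from 3.23 to 6.08 CPM, while TP53BP1, which encodes 53BP1, fell from 102 to 73.9 CPM. SHLD1 fell from 6.33 to 4.51 CPM (limma adjusted p = 0.0439), but its groups overlapped and the call was lost in 9 of 18 alternatives, among them the 3 other scalings. RIF1, which links 53BP1 to shieldin, averaged 114 CPM in the low and 129 CPM in the high glucose libraries (limma adjusted p = 0.125). Its log2 difference of 0.17 was 0.25 without high glucose replicate 1 (limma adjusted p = 0.000715). In that fit 4 of the 5 genes passed, against 48.2% of all genes. In the separate fit of genes of at least 5 CPM without that library, 76.5% were called.

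Fork protection and ATR signaling genes, which sense the stalled forks on which translesion polymerases act, were split, with 6 of 16 higher and 5 lower. Their median log2 change was 0.06. The shares called were 46.8% of all genes and 66.9% of those of at least 5 CPM, which 15 of the 16 reach. TOPBP1, the activator of ATR, rose from 53.1 to 77.4 CPM, CHEK1, the kinase downstream of ATR, from 22.4 to 29.5 CPM, and its mediator CLSPN from 21.3 to 36.0 CPM. The fork remodeler SMARCAL1 fell from 31.6 to 19.5 CPM, and the kinase ATR itself, named after its values were seen, fell from 37.2 to 27.6 CPM (log2 change -0.43, limma adjusted p = 0.00667). SMARCAL1 and HLTF both reverse forks, and both had lower transcript levels at high glucose.

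Proliferation genes also differed between the groups, and many damage tolerance genes are known to vary with the cell cycle. Of 11 proliferation markers, 10 rose, against 33.6% of genes of at least 5 CPM, and none fell, with a median log2 change of 0.66. The 11 genes are those of the study's tumor proliferation score. The study also assayed DNA synthesis by BrdU incorporation, with MDA-MB-157 among the lines, and reports no increase of proliferation under hyperglycemia. That assay was a separate experiment, and whether the rise of these transcripts went with growth in the sequenced cultures was not tested. UBE2C rose from 44.3 to 74.6 CPM, NDC80 from 28.6 to 46.1 CPM, PTTG1 from 45.2 to 72.8 CPM and RRM2 from 99.1 to 135 CPM. Their part in the changes of RAD18 and the other 9 genes was not tested.

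**Figure D5:**
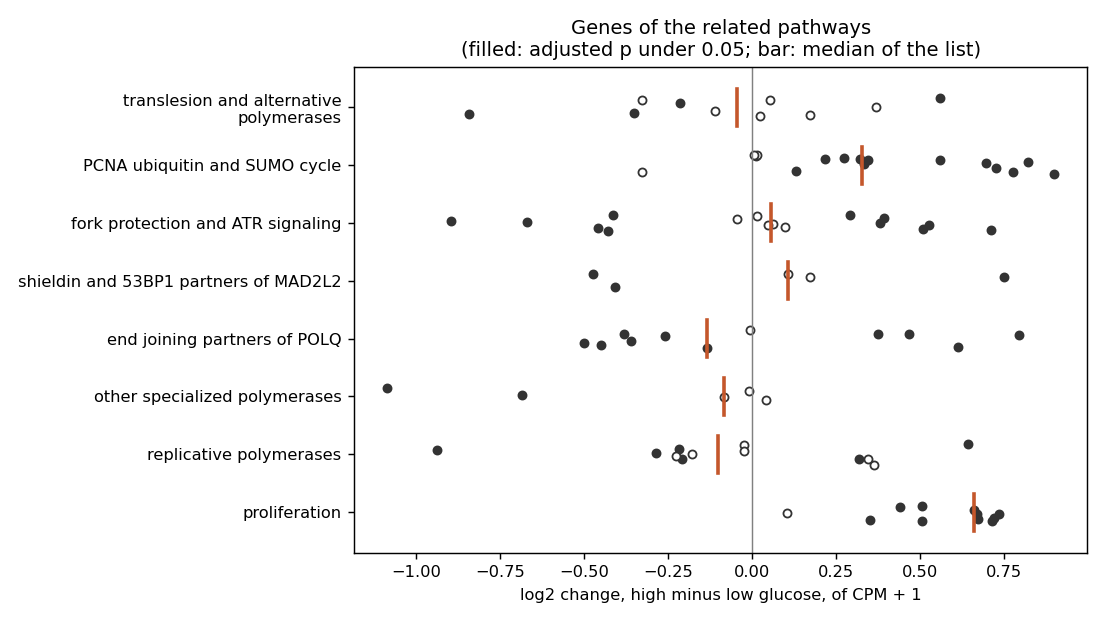
Log2 change of CPM + 1, high minus low glucose (horizontal axis), of every gene of the 10 and of the 7 related lists (rows), filled where the adjusted p is under 0.05, with the median of each list as a bar. The medians run from -0.13 for the end joining partners of POLQ to 0.66 for proliferation, and the 10 genes are spread around a median of -0.04.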

How the data were processed

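RNA was sequenced from 8 libraries of MDA-MB-157 cells, grouped by the titles GEO gives. The authors deposited CPM values scaled with TMM factors, and the submitters' processing notes name hg38 and edgeR. The counting tool and its use of strand are not given in the sources used here. Of values under 200 reads, 72.0% to 73.3% a library were whole multiples of 1 read within 0.002 reads and the rest were fractional, so no count test was run. Reads were estimated from this step, for counting error only. Of 21077 lines, 18 Y copies of pseudoautosomal genes were left out. Genes were compared on log2(CPM + 1) with limma 3.58.1 in R 4.3.3 (trended, 2-sided, no covariate), with Benjamini-Hochberg adjustment over all 21059 genes and a threshold of 0.05. A log2 change on this scale understates the change of low genes. The labels do not say that replicates were separate cultures, so p-values measure only the spread between these samples, which may be technical. Transcript lengths and GC content are from GENCODE 44 canonical transcripts, in its version mapped to the earlier human build. Shared 31-base words and exon overlaps set the canonical transcripts of the 10 genes against all transcripts and exons of other genes. The 10 genes and 7 partner lists were chosen with earlier results of these data known. Of each partner list, at most the 4 genes with the smallest adjusted p were named, plus PCNA, POLD2, POLD3, UBE2A, UBE2B and USP1. ATR and SHPRH were added after their values were seen. Alternatives changed the pseudocount (0.1), low-value filter, scaling, length or GC trend, replicate block and libraries.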

Additional observations from a re-analysis of the deposited data

Results flagged for a closer look

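In groups of 4 libraries, the highest or lowest value was examined for a gap to its nearest neighbour that, as a share of the range of the group, exceeded Dixon's 95% critical value for 4. Of 84 groups over the 10 genes and the partner genes named, with ATR and SHPRH left out, 7 passed, against about 4.2 by chance at 1 in 20.

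Among the 10 genes, MAD2L2 in low glucose replicate 1 was the only such value (gap 0.963 of the range), at 70.2 CPM beside 63.1 to 63.4 CPM in the other 3. High glucose replicate 1 gave 3 of the others: PCNA at 179 CPM beside 142 to 144 CPM (gap 0.933), POLL at 5.51 CPM beside 6.43 to 6.58 CPM (gap 0.866) and POLE3 at 100.4 CPM beside 88.7 to 90.5 CPM (gap 0.849). The remaining values were CLSPN in low glucose replicate 2, at 22.7 CPM beside 20.8 to 21.0 CPM (gap 0.873), RBBP8 in high glucose replicate 3, at 53.3 CPM beside 56.0 to 56.3 CPM (gap 0.899), and RRM2 in low glucose replicate 3, at 104 CPM beside 97.0 to 98.1 CPM (gap 0.859).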

How the results depend on the processing

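Over 18 alternatives, 161 of 180 log2 changes of the 10 genes kept their direction and side of the threshold. POLQ also passed with genes of at least 1 CPM (0.37) or 5 CPM (0.37), with the length (0.37) or GC (0.32) trend removed, and PRIMPOL with genes of at least 1 CPM (-0.33) or 5 CPM (-0.33) and the GC trend removed (-0.40). MAD2L2 changed sign with the length (0.0090) or GC (0.058) trend removed, and POLH without low glucose replicate 1 (-0.00018), low glucose replicate 4 (-0.027) or high glucose replicate 4 (-0.060). Leaving out each library in turn gave log2 changes of -0.060 to 0.094 for POLH, 0.078 to 0.34 for REV3L and 0.25 to 0.49 for POLQ, the highest REV3L and POLQ values being those without high glucose replicate 1, and 4 to 6 of the 10 genes called. An alternative chosen after seeing the data, genes of at least 5 CPM without high glucose replicate 1, called 8 of the 10 and 76.5% of the genes tested, adding REV3L (0.34), MAD2L2 (-0.21), POLQ (0.49) and PRIMPOL (-0.29). The causes were not tested. Among genes of at least 1 CPM the SE of POLQ was 0.140 in place of 0.164 and its unadjusted p 0.0210 in place of 0.0580, so that the call did not come from the adjustment alone.

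The replicate numbers did not pair the libraries: deviations of same-numbered libraries from their group means correlated at 0.07, -0.03, 0.01 and -0.04 over 11297 genes, and only number 1 correlated best with its own number. With the replicate block, PRIMPOL passed (-0.33, limma adjusted p = 0.0157) and 8921 genes were called in place of 9849. CPM values are shares of each library, so a level can move because other genes moved. Values of these genes rest on 58 to 1051 reads, and the intervals given come from the spread between libraries, which includes counting error.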

Other observations

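For the 4 genes that passed, the genes of at least 5 CPM whose log2(CPM + 1) values were most alike over the 8 libraries are given as a description. For RAD18 these were SHE (r = 0.996), DNAJC2 (0.996) and PRDM1 (0.995), and for HLTF CACNA2D2 (0.989), AC000093.1 (0.983) and NDNF (0.980). For POLI they were SLX4IP (0.990), ETAA1 (0.986) and ZNF397 (0.980), and for POLK RALGDS (0.989), MSTO1 (0.983) and IFT46 (0.980). The groups stand apart in each of these genes, and r mostly follows that step: 2257 genes had an r above 0.9 with RAD18, 970 with POLI, 829 with POLK and 420 with HLTF.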
